A study of Canis lupus familiaris with 12 samples.

Results

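The BCL2 family decides whether the outer membrane of mitochondria is opened in a dying cell, and CASP9 encodes the caspase that acts next on that route. Anti-apoptotic members (BCL2, BCL2L1, MCL1) hold the pore-forming effectors BAX and BAK1 in check, and BH3-only members (PMAIP1, BBC3, BCL2L11) counter them. Once the membrane opens, released cytochrome c binds APAF1, and the resulting apoptosome activates caspase-9. In adult neurons this route is kept under tight restraint, with BCL2L1 and MCL1 among the members known for it.

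These 9 genes were read out of the 31158 gene models of the deposited hippocampal table, in which all 9 symbols were found. The set was chosen by gene family, except that PMAIP1 was chosen by its rise in the paced dogs. Its difference between the arms is therefore a description and carries no test. The other members were named with earlier results of these data known.

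Beagles had received rapid atrial pacing for 2 weeks, a way to bring about atrial fibrillation, or a sham operation. Hippocampal mRNA was sequenced from 3 pacing and 3 sham samples, and the study asked how atrial fibrillation bears on cognition. No genetic change is given for either arm, and the ages of the dogs are not given in the labels. Values are RPKM, reads per kilobase of summed exon length and per 1e6 reads assigned to genes, and coordinates are those of the table, whose sequence names belong to the dog assembly CanFam3.1.

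The libraries held 35003483 to 43425895 assigned reads in pacing and 36573169 to 51789497 in sham. Of 67 marker genes listed for 11 brain and blood cell types, 63 were matched in the table, and none of those was at 0 in every library. The 8 hippocampal excitatory neuron markers summed to 550 to 766 RPKM in pacing and 447 to 656 in sham, so markers of the labelled tissue were present in both arms. The sham libraries differed from one another more than the pacing libraries did. Sham replicate 2 lay at 39.6 and sham replicate 3 at 8.61 on a first principal component with 45.3% of the variance, while the other 4 libraries lay between -13.5 and -9.62. Choroid plexus markers, genes of the epithelium that makes cerebrospinal fluid, summed to 76.1 to 159 RPKM in pacing, against 5.85, 454 and 45.7 in sham replicates 1, 2 and 3. TTR alone stood at 70.5 to 155 RPKM in pacing, against 2.46, 449 and 42.9 in sham replicates 1, 2 and 3. It made up most of each sum except in sham replicate 1. FOLR1 was also highest in sham replicate 2, but KL, at 1.83 RPKM, was lowest there and CLIC6 was highest in pacing replicate 2. AQP1 was at or below 0.0868 RPKM in every library. Neuron markers summed to 1851 to 2088 RPKM in pacing, against 1982, 1272 and 1994 in the same order of sham replicates.

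By level over all 6 libraries, MCL1 stood highest of the 9 genes, at 31.0 ± 10.6 RPKM (SD, n = 6), followed by BCL2L1 at 17.2 ± 1.55. MCL1 exceeded BCL2L1 in 6 of 6 libraries. PMAIP1 averaged 11.6 ± 2.69 RPKM and BAX 9.60 ± 1.17, and their order held in 5 of 6 libraries. BCL2 followed at 4.92 ± 0.773 RPKM, below BAX in 6 of 6. The low group was BAK1 at 0.999 ± 0.1002, CASP9 at 0.945 ± 0.250, BCL2L11 at 0.573 ± 0.103 and BBC3 at 0.380 ± 0.0988 RPKM. BAK1 lay above CASP9 in only 3 of 6 libraries, so those neighbours did not separate. The highest member was thus 81.6 times the lowest on this per-length scale.

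**Figure D1:**
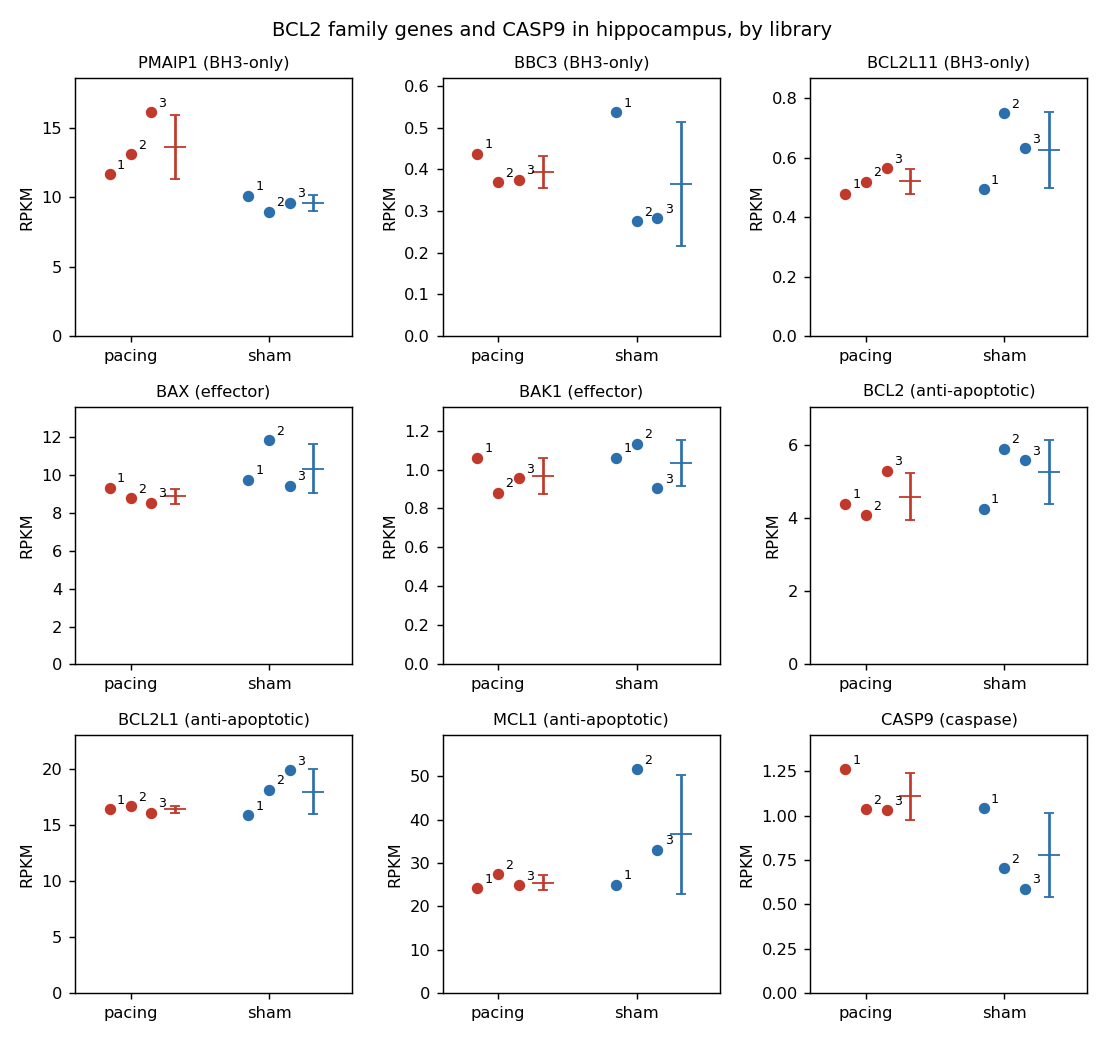
Level of each of the 9 genes in RPKM (vertical axes, each from 0) in the 3 pacing libraries (red) and the 3 sham libraries (blue), numbered by replicate, with the arm mean and SD as a bar to the right of each arm. PMAIP1 is the gene with all pacing libraries above all sham libraries, and BAX the one with all pacing libraries below. For most other genes sham replicate 1 lies among the pacing libraries.

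Among the BH3-only genes, PMAIP1 encodes NOXA, a small protein that binds MCL1 in human cells and whose gene responds to DNA damage, to interferon and to the integrated stress response. It lies on chromosome 1 from 16469793 to 16472910 on the minus strand, in a model of 2 exon blocks that add up to 168 bases, the shortest of the 9. PMAIP1 stood at 11.7, 13.1 and 16.2 RPKM in pacing replicates 1 to 3, against 10.1, 8.96 and 9.60 RPKM in sham replicates 1 to 3. Every pacing library lay above every sham library, with the smallest gap between pacing replicate 1 and sham replicate 1. The arm means of 13.6 ± 2.30 (pacing) and 9.57 ± 0.585 RPKM (sham; SD, n = 3 per arm) gave a ratio of 1.43, and the log2 difference on the log2(RPKM + 1) scale was 0.46. In bulk tissue, a change in the number of cells of a type and a change in RNA per cell cannot be told apart.

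The PMAIP1 levels rest on few reads: 85, 90 and 95 in the pacing libraries, against 85, 78 and 59 in the sham libraries. The exact 95% counting interval of pacing replicate 1 ran from 9.31 to 14.4 RPKM and overlapped that of all 3 sham libraries. Pacing replicate 3, from 13.1 to 19.7 RPKM, overlapped none of the sham intervals. Summed over an arm, 270 reads in pacing and 222 in sham gave a ratio of read shares of 1.41, with a counting interval of 1.18 to 1.69. Such intervals cover counting error only and leave out the spread between samples. They also leave out that PMAIP1 was chosen by its rise in these same libraries, so they are no test of a difference. The SD among pacing libraries was 1.59 times what counting alone gives, and among sham libraries 0.519 times.

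**Figure D2:**
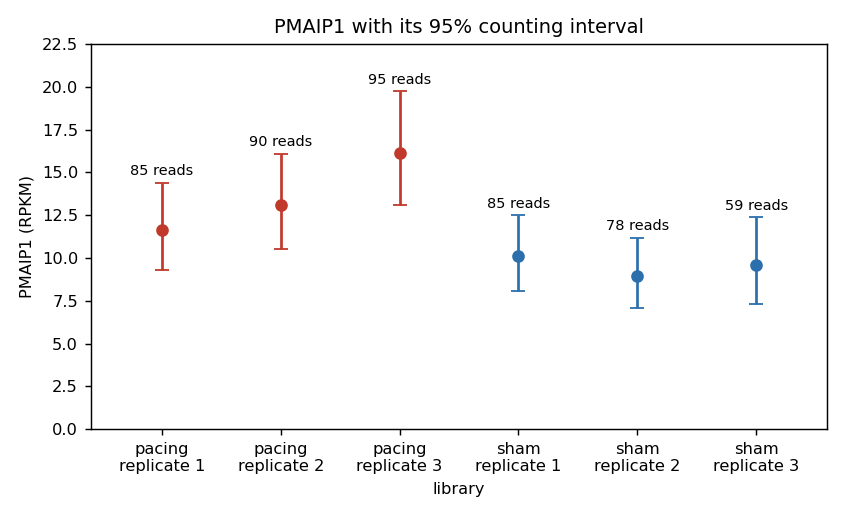
PMAIP1 level in RPKM (vertical axis) in each hippocampal library (horizontal axis), pacing in red and sham in blue, with the exact 95% counting interval as bars and the number of reads above. Pacing replicate 3 stands clear of the sham libraries, while the interval of pacing replicate 1 (9.31 to 14.4 RPKM) takes in all sham values but that of sham replicate 2 at 8.96.

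Leaving out pacing replicate 3 brought the PMAIP1 log2 difference to 0.34, and leaving out pacing replicate 1 brought it to 0.56. It was 0.42 without sham replicate 2 and 0.38 with sham replicates 2 and 3 both left out. Sham replicate 2, where PMAIP1 was lowest at 8.96 RPKM, had the lowest neuron marker sum and the highest choroid plexus, microglial and leukocyte marker sums. C1QB, at 87.0 RPKM, made up most of that microglial sum, while the microglial markers P2RY12, TMEM119 and CX3CR1 lay below every pacing library. S100A9, at 29.8 RPKM, and LYZ, at 18.6, made up most of the leukocyte sum, and TTR, at 449, nearly all of the choroid plexus sum. CD3E was lowest there and CD3D was at 0, while the other listed leukocyte markers were highest there. RBFOX3, at 13.8 RPKM, was not lowest in that library, unlike the other listed neuron markers. The part of these cell types in the PMAIP1 levels was not tested.

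BBC3 encodes PUMA, a DNA damage-induced protein that binds all anti-apoptotic members, and lies on chromosome 1 from 108742793 to 108750832. It stood at 0.438, 0.370 and 0.376 RPKM in the pacing libraries, against 0.538, 0.276 and 0.283 in the sham libraries. Sham replicate 1 was the highest of all libraries and sham replicates 2 and 3 were the lowest, so the arms overlapped. BBC3 rested on 47 to 68 reads per pacing library and 37 to 96 per sham library. Its mean over the 6 libraries lay below the minimum of 0.5 RPKM set for testing, and it was not tested. The log2 difference was 0.04 and turned to -0.01 without sham replicate 2 or sham replicate 3 and to -0.14 without sham replicates 2 and 3. PMAIP1 exceeded BBC3 by 26.6 to 43.0 times in the pacing libraries and by 18.8 to 33.9 times in the sham libraries.

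BCL2L11, which encodes BIM, the BH3-only protein linked to loss of trophic support in neurons, lies on chromosome 17 from 35619804 to 35665782. It stood at 0.479, 0.519 and 0.564 RPKM in pacing, against 0.493, 0.751 and 0.633 in sham. Sham replicate 1 lay among the pacing libraries and the other sham libraries lay above them. The log2 difference was -0.09, with a 95% interval of -0.32 to 0.14 (limma, adjusted p = 0.776). Read numbers were 93 to 100 in pacing and 109 to 183 in sham, and the sham SD was 2.37 times what counting alone gives.

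The effector BAX, on chromosome 1 from 107423388 to 107426464, stood at 9.32, 8.76 and 8.53 RPKM in pacing, against 9.75, 11.8 and 9.44 in sham. All pacing libraries lay below all sham libraries, but pacing replicate 1 and sham replicate 3 were close. The means were 8.87 ± 0.409 RPKM for pacing and 10.3 ± 1.29 for sham (SD, 3 libraries per arm; log2 difference -0.19, 95% interval -0.45 to 0.06, limma adjusted p = 0.618). Without sham replicate 2, the highest library, the difference came to -0.10. BAX was the one tested member of 7 with its arms apart in this direction, as were 11.3% of all 16090 genes tested. Of its 536 exon bases, 63 were shared with LOC111097576 on the opposite strand, and no source used here gives the strand setting of the counting.

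BAK1, the second effector, on chromosome 12 from 2950359 to 2957604, stood at 1.06, 0.880 and 0.956 RPKM in pacing, against 1.06, 1.13 and 0.906 in sham. The arms overlapped. The log2 difference was -0.05 (95% interval -0.28 to 0.18, limma adjusted p = 0.897), and it turned to 0.0034 under quantile normalization. Its exons shared 91 of 2778 bases with LOC111098223 on the opposite strand.

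The anti-apoptotic genes separated sham replicates 2 and 3 from the other libraries more than pacing from sham. MCL1, a short-lived protein needed for neuronal survival in mice and the partner of NOXA, lies on chromosome 17 from 59759605 to 59763111. It stood at 24.2, 27.4 and 24.8 RPKM in pacing, against 25.0, 51.7 and 33.03 in sham. Sham replicate 2 lay 0.77 above the gene's mean on the log2 scale, the largest deviation of any of the 9 genes in any library, and sham replicate 1 lay within the pacing range. The means were 25.5 ± 1.68 RPKM for pacing and 36.6 ± 13.7 for sham (SD, 3 libraries per arm; log2 difference -0.44, 95% interval -1.001 to 0.11, limma adjusted p = 0.611). The difference was -0.17 without sham replicate 2, -0.68 without sham replicate 1 and 0.02 with sham replicates 2 and 3 both left out. With 2302 to 7089 reads per library, counting error was small: the sham SD was 24.9 times what counting gives.

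BCL2L1, which encodes BCL-XL, the main anti-apoptotic member of mature neurons, lies on chromosome 24 from 21145214 to 21209425. It stood at 16.4, 16.7 and 16.1 RPKM in pacing, against 15.9, 18.2 and 19.9 in sham. The pacing libraries were within 0.287 RPKM of each other as an SD, a coefficient of variation of 1.75%, against 11.2% in sham. Sham replicate 1 was the lowest of the 6 libraries and sham replicate 3 the highest. The log2 difference was -0.12 (95% interval -0.37 to 0.13, limma adjusted p = 0.728).

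BCL2 itself, on chromosome 1 from 13733849 to 13900653, stood at 4.39, 4.08 and 5.30 RPKM in pacing, against 4.26, 5.90 and 5.59 in sham. Pacing replicate 3 was nearer to sham replicates 2 and 3 than to the other pacing libraries, and sham replicate 1 lay among the lower pacing libraries. The log2 difference was -0.16 (95% interval -0.49 to 0.18, limma adjusted p = 0.741). The 3 anti-apoptotic genes together summed to 45.0, 48.1 and 46.2 RPKM in pacing, against 45.2, 75.8 and 58.5 in sham, so the sum in sham replicate 1 lay within the pacing range. In sham replicate 2, where that sum was highest, astrocyte markers summed to 2390 RPKM and oligodendrocyte markers to 2705. The pacing libraries held 1526 to 1757 and 1480 to 1844. Most of the astrocyte excess was GFAP, at 1525 RPKM against 610 to 901 in pacing. AQP4 and GJA1 also lay above the pacing libraries, SLC1A2 lay within them, and SLC1A3, at 438 RPKM, lay below them. In sham replicate 3 the astrocyte and oligodendrocyte markers summed to 1377 and 1086, below the pacing libraries. The part of these cell types in the anti-apoptotic levels was not tested.

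CASP9, the initiator caspase of the mitochondrial route, lies on chromosome 2 from 82033759 to 82076710. It stood at 1.26, 1.04 and 1.03 RPKM in pacing, against 1.04, 0.704 and 0.589 in sham. Sham replicate 1 overlapped the pacing libraries by a narrow margin, while sham replicates 2 and 3 lay below all others. The means were 1.11 ± 0.133 RPKM for pacing and 0.779 ± 0.236 for sham (SD, 3 libraries per arm), the same ratio of 1.43 as for PMAIP1. The log2 difference was 0.25 (95% interval -0.04 to 0.54, limma adjusted p = 0.585), the smallest adjusted p of the tested members. It ranged from 0.18 to 0.36 when single libraries were left out and was 0.04 with sham replicates 2 and 3 both left out. With edgeR on recovered reads, which adds no pseudocount of 1 RPKM, it was 0.55. Reads numbered 104 to 158 per pacing library and 62 to 150 per sham library.

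**Figure D3:**
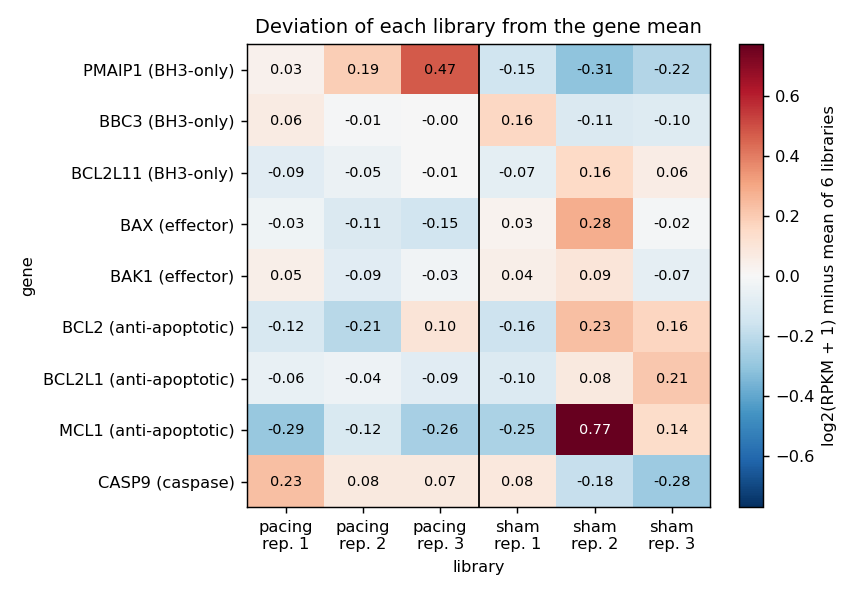
Deviation of log2(RPKM + 1) in each library from the mean of the 6 libraries, for each gene (rows, grouped by role) and library (columns, pacing left of the line, sham right of it), with red above and blue below the mean. MCL1 in sham replicate 2, at 0.77, is the largest deviation, and MCL1 in sham replicate 1 is at -0.25, within the pacing values of -0.29 to -0.12.

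Tested across all genes, 0 of the 7 tested members other than PMAIP1 passed an adjusted p of 0.05 with limma, where 0.0249% of the 16090 genes tested did (4 genes). None of the 7 had an unadjusted p under 0.05, which 6.3% of all genes reached as lower and 2.85% as higher in pacing. edgeR and DESeq2 on recovered reads likewise passed 0 of them. Of the 7, 6 had a negative log2 difference and CASP9 a positive one, with a median of -0.12, while 9482 of all 16090 genes were negative with a median of -0.04. With sham replicates 2 and 3 left out, 5 of the 7 were positive. The 95% intervals of the 7 reached as low as a log2 value of -1.001, for MCL1, and as high as 0.54, for CASP9.

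**Figure D4:**
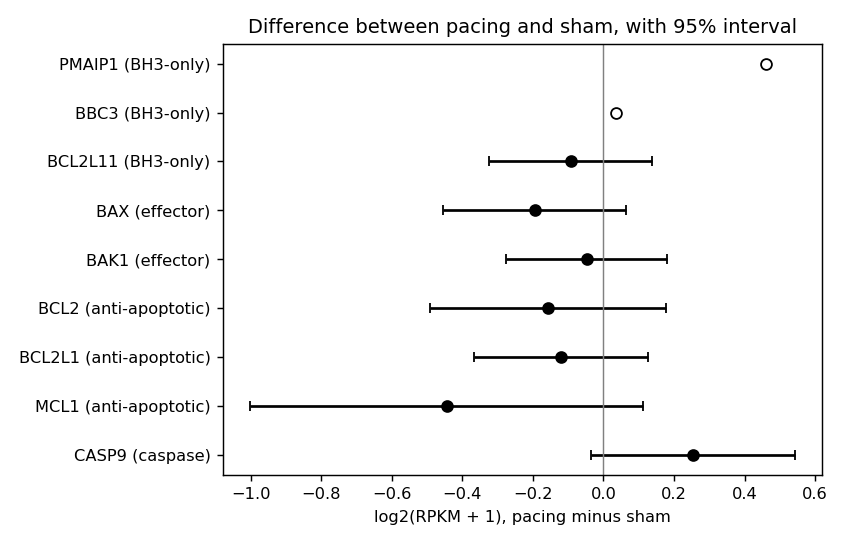
Difference between pacing and sham for each gene on the log2(RPKM + 1) scale (horizontal axis), with the 95% interval of the limma fit where a test was made. Open circles are PMAIP1, chosen by its rise, and BBC3, below the expression minimum, which carry no interval. All 7 intervals include 0.

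Ratios between members were taken within each library, per length. The BAX to BCL2 ratio, which is often used as an index of apoptotic readiness, was 2.12, 2.15 and 1.61 in pacing, against 2.29, 2.00 and 1.69 in sham, and did not separate the arms. MCL1 over PMAIP1, the pair that binds, was 2.08, 2.09 and 1.54 in pacing, against 2.47, 5.77 and 3.44 in sham. The second ratio was lower in every pacing library, but both of its terms contribute, PMAIP1 was chosen by its rise, and sham replicate 2 carries the highest value of MCL1. BCL2L1 over BCL2 was 3.04 to 4.09 in pacing and 3.08 to 3.73 in sham.

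The genes whose pattern over the 6 libraries was most like that of PMAIP1 were sought among 12766 tested genes with a symbol. ARHGEF40 (r = 0.980), VPS13A (0.977), UBE2J2 (0.973), LRP4 (0.971) and MIR186 (0.969) led by Pearson correlation of log2(RPKM + 1), with Spearman rho at or above 0.943 over the same 6 libraries. VPS13A, whose loss causes chorea-acanthocytosis in humans, stood at 8.46, 8.73 and 9.77 RPKM in pacing, against 8.33, 7.74 and 8.04 in sham. LRP4, a receptor of agrin, stood at 9.19, 9.30 and 9.89 RPKM in pacing, against 8.39, 7.98 and 8.45 in sham. MIR186, a microRNA precursor, stood at 0.755, 0.802 and 1.405 RPKM in pacing, against 0.328, 0.317 and 0.448 in sham. Such levels on a precursor model rest on few reads, so its rank is weakly measured. These values share libraries, and 39 genes exceeded a correlation of 0.9, so the order is a description of 6 points. The genes were picked by likeness to PMAIP1, which was chosen by its rise, so their higher values in pacing follow from that choice.

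Around the 9 members, 119 other genes of the apoptotic route and its regulators were listed, of which 110 were in the table and 90 were tested. With limma 0 of the 90 passed, and edgeR on recovered reads likewise passed 0. DESeq2 on recovered reads passed 4 of the 90, where it passed 199 of the 16090 genes tested. At an unadjusted p under 0.05 with limma, 9 were higher and 4 lower, where 2.85% of all genes were higher and 6.3% lower. All pacing libraries lay above all sham libraries for 10 of the 90, where 4.92% of all genes did, and below for 7, where 11.3% of all genes did. Of the 10 genes above, 6 were interferon-response genes.

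Of 11 tested other members of the BCL2 family, 6 had a positive and 5 a negative log2 difference, with a median of 0.00, and the arms overlapped in all 11. With sham replicates 2 and 3 left out, 8 were positive. Values below are means ± SD over 3 libraries per arm where not given by library. The BH3-only gene HRK, expressed mainly in neurons, stood at 10.7, 13.1 and 12.8 RPKM in pacing, against 13.6, 7.71 and 10.1 in sham (limma adjusted p = 0.719). It was about as abundant as PMAIP1 and lowest in sham replicate 2, the library with the lowest neuron marker sum. HRK also lay below every pacing library in sham replicate 3, where the neuron marker sum of 1994 RPKM was within the pacing range. The part of neurons in the HRK levels was not tested. BAD, the BH3-only protein silenced by growth factor signals, averaged 11.3 ± 0.845 RPKM in pacing, against 9.73 ± 1.17 for sham (adjusted p = 0.614). The mitophagy receptor BNIP3L averaged 27.0 ± 2.97 RPKM in pacing, against 23.6 ± 2.72 for sham (adjusted p = 0.653). BCL2A1, an anti-apoptotic gene of leukocytes and microglia, stood at 1.99, 2.18 and 1.84 RPKM in pacing, against 0.945, 6.34 and 2.64 in sham, again highest in sham replicate 2. Microglial markers summed to 136 RPKM in that library, against 78.7 in sham replicate 1, with C1QB at 87.0 against 38.4. P2RY12, TMEM119 and CX3CR1 were lower there than in sham replicate 1, and the other listed microglial markers were higher. The part of microglia in that value was not tested. The effector BOK, BIK and BCL2L10 were at or below 0.177 RPKM in every library.

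Of 6 tested other caspases, 5 had a negative and 1 a positive log2 difference (median -0.05), and 3 of the 6 were positive under median-of-ratios scaling and under quantile normalization. With sham replicates 2 and 3 left out, 4 were positive. CASP8, the initiator of the death receptor route, averaged 0.521 ± 0.119 RPKM in pacing, against 0.802 ± 0.244 for sham (log2 difference -0.24, limma adjusted p = 0.607). CASP6, of the executioner class, averaged 2.55 ± 0.240 RPKM in pacing, against 2.78 ± 0.359 for sham (adjusted p = 0.821). APAF1, the scaffold that CASP9 binds, stood at 0.840, 0.791 and 0.877 RPKM in pacing, against 0.932, 1.09 and 1.03 in sham, below in every library without passing (log2 difference -0.14, adjusted p = 0.654). Cytochrome c, CYCS, averaged 318 ± 6.58 RPKM in pacing and 317 ± 44.9 in sham. The outer membrane channel VDAC3 averaged 110 ± 4.85 RPKM in pacing, against 90.7 ± 21.1 for sham (adjusted p = 0.614). DFFA, the inhibitor of the caspase-activated DNase, averaged 13.4 ± 1.11 RPKM in pacing, against 16.0 ± 2.75 in sham (adjusted p = 0.642). Of the 11 tested apoptosome and release genes, 5 were positive and 6 negative, and 4 were positive with sham replicates 2 and 3 left out.

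**Figure D5:**
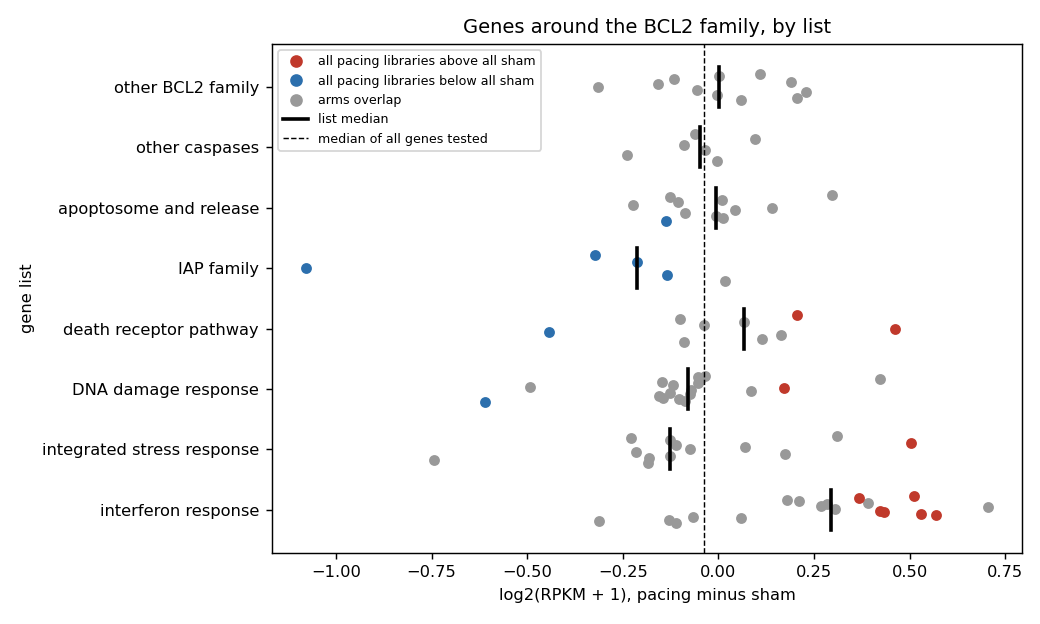
Difference between pacing and sham on the log2(RPKM + 1) scale (horizontal axis) for each tested gene of 8 lists around the BCL2 family (vertical axis). Red genes had all pacing libraries above all sham libraries, blue genes all below, and grey genes overlapped, with a black bar at each list's median and a dashed line at the median of all genes. BIRC3 at -1.08 is the lowest point, and 6 of the red genes are interferon-response genes.

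In the inhibitor of apoptosis family, 4 of the 5 tested genes had all pacing libraries below all sham libraries, a position that 11.3% of all genes tested held. The median log2 difference of these 5 was -0.21, and -0.10 with sham replicates 2 and 3 left out, when all 5 were negative. None of them passed with limma. BIRC3 stood at 1.74, 1.51 and 1.82 RPKM in pacing, against 6.26, 4.58 and 3.51 in sham (log2 difference -1.08, adjusted p = 0.210). DESeq2 on recovered reads passed BIRC3 (adjusted p = 4.28e-06), and edgeR on the same reads did not. BIRC5, or survivin, a gene of dividing cells, averaged 0.941 ± 0.0114 RPKM in pacing, against 1.25 ± 0.114 for sham (adjusted p = 0.546). The giant member BIRC6 averaged 4.76 ± 0.0709 RPKM in pacing, against 6.27 ± 1.20 for sham (adjusted p = 0.540), and BIRC2 averaged 25.1 ± 0.862 RPKM in pacing, against 27.7 ± 1.24 for sham (adjusted p = 0.645). XIAP, the direct inhibitor of caspase-9, did not differ beyond the spread, at 2.79 ± 0.147 RPKM in pacing and 2.75 ± 0.344 in sham. BIRC7, at or below 0.145 RPKM in every library, was lower in each pacing library and was not tested.

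On the death receptor route, 5 of 9 tested genes had a positive difference (median 0.07), and 6 had one with sham replicates 2 and 3 left out. TNFSF10, the ligand TRAIL and an interferon-inducible gene, stood at 11.6, 10.7 and 11.4 RPKM in pacing, against 8.95, 7.94 and 6.88 in sham (log2 difference 0.46, limma adjusted p = 0.356). CFLAR, the decoy that blocks caspase-8, averaged 12.1 ± 0.482 RPKM in pacing, against 10.4 ± 0.719 in sham (adjusted p = 0.562). Both had their arms apart, as did the receptor TNFRSF25 on the lower side, at 2.16 ± 0.0170 RPKM in pacing, against 3.33 ± 0.565 for sham (adjusted p = 0.393). FAS averaged 1.33 ± 0.173 RPKM in pacing, against 1.47 ± 0.0562 for sham, and its ligand FASLG was at or below 0.0725 RPKM in every library.

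Of 18 tested genes of the DNA damage response list, 15 had a negative and 3 a positive difference, with a median of -0.08, and 10 were positive with sham replicates 2 and 3 left out. CDKN1A, an inhibitor of the cell cycle, averaged 1.20 ± 0.0427 RPKM in pacing and 1.45 ± 0.388 in sham, and the ubiquitin ligase MDM2 18.4 ± 0.183 RPKM in pacing, against 19.7 ± 2.02 for sham. RRM2B, a ribonucleotide reductase subunit, averaged 7.86 ± 0.199 RPKM in pacing, against 6.88 ± 0.485 for sham, the only tested gene of this list above in every pacing library (limma adjusted p = 0.611). PLK2 averaged 65.3 ± 7.65 RPKM in pacing, against 49.2 ± 12.1 for sham (adjusted p = 0.548), and BTG2 0.679 ± 0.0286 RPKM in pacing, against 1.48 ± 0.974 for sham (adjusted p = 0.600).

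Integrated stress response genes, through which ATF4 can raise PMAIP1 in human cells, had 9 negative and 4 positive differences of 13 tested (median -0.13), and 8 were positive with sham replicates 2 and 3 left out. ATF4 averaged 123 ± 8.70 RPKM in pacing, against 141 ± 26.5 for sham (adjusted p = 0.720). ATF3 stood at 1.30, 1.13 and 1.43 RPKM in pacing, against 1.12, 7.16 and 2.22 in sham (adjusted p = 0.628), and thus was highest in the same library as MCL1. The kinase EIF2AK3 averaged 6.07 ± 0.0718 RPKM in pacing, against 7.27 ± 1.07 for sham (adjusted p = 0.611). PHGDH, the first enzyme of serine synthesis, stood at 53.8, 51.2 and 41.0 RPKM in pacing, against 29.7, 35.1 and 37.1 in sham. Its arms were apart without passing limma (log2 difference 0.50, adjusted p = 0.391). DESeq2 passed it (adjusted p = 0.0295), and edgeR did not.

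Interferon-response genes, a group to which PMAIP1 belongs in human cells, had 14 positive and 4 negative differences of 18 tested, with a median of 0.29. Of all 16090 genes tested, 6608 were positive. The counts of the interferon list were the same under median-of-ratios scaling and quantile normalization, and 17 of its genes were positive with sham replicates 2 and 3 left out. None passed with limma, and the list was chosen with earlier results of these data known. The targets IFI44, IFI44L, IFIT2, IFIT3, HERC5 and BST2 were higher in every pacing library. IFIT3 stood at 3.63, 3.47 and 3.30 RPKM in pacing, against 2.85, 2.69 and 1.61 in sham (adjusted p = 0.512). BST2, or tetherin, stood at 7.35, 4.95 and 4.94 RPKM in pacing, against 4.26, 3.69 and 3.12 in sham (adjusted p = 0.455). IFIT2 averaged 2.08 ± 0.449 RPKM in pacing, against 1.30 ± 0.420 in sham (adjusted p = 0.536). IFI44L stood at 2.17, 1.29 and 2.44 RPKM in pacing, against 0.946, 1.26 and 0.879 in sham (adjusted p = 0.455). HERC5 stood at 0.882, 0.799 and 1.17 RPKM in pacing, against 0.567, 0.468 and 0.489 in sham (adjusted p = 0.402). DESeq2 passed IFI44 (adjusted p = 0.0149) and HERC5 (adjusted p = 0.0331), and edgeR passed neither. IFI44 stood at 7.50, 5.41 and 7.12 RPKM in pacing, against 4.15, 4.67 and 3.66 in sham (limma adjusted p = 0.3602). The transcription factors IRF1, IRF3, IRF9 and STAT2 did not separate pacing from sham, with log2 differences from -0.31 to -0.07. XAF1, an antagonist of XIAP, stood at 0.402, 0.388 and 0.272 RPKM in pacing, against 0.270, 0.153 and 0.0434 in sham. Its mean was below the expression minimum, and its exons share 682 of 1261 bases with a model on the opposite strand.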

How the data were processed

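Hippocampal mRNA libraries were made with a stranded kit, per the labels' protocols. The submitters' processing notes name featureCounts, STAR 2.5.3a and Trimmomatic 0.36, in no stated order, and no source used here gives the annotation release or strand setting. The authors deposited RPKM per gene and, for exosomes of epicardial fat, RPM (the table is named TPM but has no length term). RPKM times the deposited length column gave whole reads for 100% of values in each library (tolerance 0.001). The labels do not say that each sample is a separate dog, so p-values measure the spread between samples.

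Genes with a mean of at least 0.5 RPKM over 6 libraries were tested with limma 3.58.1 (R 4.3.3) on log2(RPKM + 1), pacing minus sham, with Benjamini-Hochberg adjustment at 0.05 over all 16090 genes. The alternatives changed the pseudocount, filter, scaling, weights and test (edgeR 4.0.16 and DESeq2 1.42.0, both run on the recovered reads), blocked on replicate number, or left out libraries. The limma and edgeR fits were checked on simulated reads, and the DESeq2, weighted and blocked fits were not. The simulation gave every gene and library the same dispersion, so it did not cover sham libraries that stand apart. Members and lists were chosen with earlier results of these data known. The text names the members, and from each list any gene past the threshold, the 3 tested genes of smallest p and those with arms apart, and as likeness the 5 genes most correlated with PMAIP1. BCL2A1, CYCS, BOK, BIK, BCL2L10, XIAP, FAS, FASLG, CDKN1A, MDM2, ATF4 and the interferon factors were added after their values were seen. Of 128 list symbols 9 were not matched and not analysed here, and some list genes that were tested and counted are not reported here by name.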

Additional observations from a re-analysis of the deposited data

How the results depend on the processing

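The count of genes passing was 4 with limma (3 higher, 1 lower), 5 under median-of-ratios scaling (3 higher, 2 lower), 7 with no low-value filter, 23 with sample weights, 199 with DESeq2, from 3 to 95 when single libraries were left out (95 without sham replicate 1, 9 without sham replicate 2) and 33 without sham replicates 2 and 3, an alternative chosen after the data were seen. That alternative leaves 1 sham library, assumed to vary like the 3 pacing libraries, so its calls are no second support. With the replicate block it was 7; same-numbered samples did not deviate together (correlations of -0.111, 0.0636 and -0.0109), so the numbers do not pair the samples. Members passing other than PMAIP1 stayed at 0 in all settings run. List genes passing numbered 4 with DESeq2 and 1 without sham replicates 2 and 3 (BIRC3, adjusted p = 0.0236), where the sham library kept, replicate 1, has the highest BIRC3 level of all, 6.26 RPKM. Without sham replicates 2 and 3 the log2 difference reversed for MCL1 (0.0239), BCL2 (0.0826), BCL2L1 (0.0424) and BCL2L11 (0.026), and under quantile normalization for BAK1 (0.0034); the cause was not tested. PMAIP1 ranged from 0.34 to 0.56 over 18 alternatives. PMAIP1, BBC3, BCL2L11, BAK1 and CASP9 rest on fewer than 200 reads per library, which limits their precision.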

Other observations

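The exosome table, from epicardial fat of the left atrium in the same arms, was looked up for 8 miRNAs known from human or mouse work to target a member; they were chosen after the table was seen and no test was made. The libraries were shallow, at 12159 to 16114 listed reads in pacing and 12767 to 25171 in sham. miR-125b, a repressor of BAK1 in human cells, stood at 68838, 35394 and 37235 RPM in pacing, against 45158, 87561 and 104175 RPM in sham. miR-16, which targets BCL2 in human cells, stood at 34296, 31855 and 35807 RPM in pacing, against 19587, 49700 and 24908 RPM in sham. The values of both miRNAs overlapped between the arms.

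Of the miR-17-92 cluster, which targets BCL2L11 in mice, miR-92a stood at 1974, 1573 and 1489 RPM in pacing, against 1088, 795 and 783 RPM in sham. miR-20a stood at 411, 551 and 496 RPM in pacing, against 340, 238 and 235 RPM in sham. miR-19b, of the same cluster, lay the other way by mean, at 870 ± 208 RPM in pacing, against 1586 ± 703 for sham (SD, 3 libraries per arm). The miR-20a values rest on 3 to 8 reads per library and those of miR-92a on 10 to 24. miR-15a, miR-34a and miR-29b, which target BCL2 or MCL1 in human cells, averaged 482 ± 83.2, 650 ± 410 and 1995 ± 1055 RPM in pacing, against 441 ± 385, 546 ± 135 and 1769 ± 434 in sham.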
